A study of Homo sapiens with 9 samples.

Results

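The 10 genes described here cover iron uptake (TFRC, STEAP3 and SLC11A2), storage and its turnover (FTH1, FTL and NCOA4), iron release (SLC40A1), haem breakdown (HMOX1) and iron sensing (ACO1 and IREB2). They were taken by name from the 58214 genes in the tables, and their 95 annotated transcripts were followed singly. The cells were K562, an immortalised human myelogenous leukaemia line, and their poly(A) RNA was sequenced on day 4 after the first siRNA transfection. The 9 libraries fell into 3 groups of 3: a control with a non-targeting siRNA (SCR), a knockdown of DHX34 and a knockdown of UPF1. All groups share the same parental line and transfection schedule, with the same siRNAs given again on day 3. The DHX34 and control siRNAs were commercial pools, while the UPF1 siRNAs were taken from an earlier study. DHX34 is an RNA helicase and UPF1 the core helicase of nonsense-mediated decay (NMD), which clears mRNAs with a premature stop codon.

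Animal cells take up transferrin-bound iron through the transferrin receptor, keep the excess inside ferritin shells and export it through ferroportin. Much of this is set on the mRNA itself. When iron is scarce, the iron regulatory proteins IRP1 and IRP2 bind a short hairpin, the iron responsive element (IRE). Binding to an IRE in the 5′ UTR blocks translation of the ferritin chains, and binding to IREs in the 3′ UTR protects the transferrin receptor mRNA from decay. Erythroid cells, which build haem, carry a heavy iron traffic.

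The IREs are shown first because they separate the members into mRNAs held at the 5′ end and mRNAs held at the 3′ end. A search of the GENCODE transcript sequences looked for the loop CAGTGN with an unpaired C 5 bases before it and 5 pairs closing the loop, on the transcribed strand, G-U pairs allowed. It found 4 matches in the 3′ UTR of TFRC and 1 match each in the 5′ UTRs of FTH1, FTL and SLC40A1. The SLC11A2 match closes 4 of the 5 pairs and was found only when 1 mismatch was allowed, a change made after the first search had returned nothing for this gene. Coordinates are GRCh38, sequences run 5′ to 3′ with the bulged C and the loop in capitals, and T stands for U.
FTH1, 5′ UTR, chr11:61967574-61967602, minus strand: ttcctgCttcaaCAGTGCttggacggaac
FTL, 5′ UTR, chr19:48965335-48965363, plus strand: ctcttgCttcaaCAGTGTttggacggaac
SLC40A1, 5′ UTR, chr2:189580661-189580689, minus strand: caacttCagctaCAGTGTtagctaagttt
TFRC, 3′ UTR, chr3:196050979-196051007, minus strand: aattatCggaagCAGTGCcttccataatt
TFRC, 3′ UTR, chr3:196050575-196050603, minus strand: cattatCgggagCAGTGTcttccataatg
TFRC, 3′ UTR, chr3:196050510-196050538, minus strand: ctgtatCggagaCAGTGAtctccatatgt
TFRC, 3′ UTR, chr3:196050463-196050491, minus strand: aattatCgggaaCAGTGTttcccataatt
SLC11A2, 3′ UTR, chr12:50988269-50988297, minus strand: agccatCagagcCAGTGTgtttctatggt

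In the IRE-holding transcript with the highest TPM of each gene the loop began at base 42 of FTH1-206, base 39 of FTL-201 and base 110 of SLC40A1-201, counted from the transcript start. In TFRC-201 the 4 loops began at bases 947, 1351, 1416 and 1463 of the 3′ UTR, and in SLC11A2-201 the loop began at base 40 of the 3′ UTR. The 5-pair form was held by the 5′ UTR of 0.198% of 19217 coding genes and by the 3′ UTR of 0.744% of 19226. With 4 pairs allowed the shares were 1.504% and 5.14%, and at that setting ACO1 and IREB2 also had 1 match each, at bases 2887 and 2838 of the 3′ UTR. A match is a description of the letters and no evidence of binding.

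Library totals ran from 73478797 to 103625443 expected counts. The targeted mRNAs followed the labels: DHX34 was at 72.5 to 74.7 CPM (counts relative to the TMM-scaled library total) in the SCR libraries and 30.0 to 34.0 CPM in the DHX34 knockdown, and UPF1 was at 252 to 267 CPM in SCR and 104.4 to 107 CPM in the UPF1 knockdown. All 11 erythroid markers were above 1 TPM (a level per transcript length). Their summed level was 25629 to 27200 TPM in SCR, 23496 to 25593 TPM in the DHX34 knockdown and 15438 to 16645 TPM in the UPF1 knockdown. Of 6 monocytic markers only LYZ and CD68 were above 1 TPM, with summed levels of 30.9 to 31.1, 58.7 to 62.0 and 25.2 to 26.6 TPM in the same order of groups. CD14, CSF1R, ITGAM and FCGR3A were under 0.1 TPM. Of 8 megakaryocytic markers 2 exceeded 1 TPM, with sums of 127 to 137, 106 to 115 and 117 to 133 TPM, most of it GP1BB. After DHX34 depletion GP1BB fell (log2 fold change -0.45), while ITGA2B (1.91, from 3.90 ± 0.291 to 14.7 ± 0.596 CPM) and ITGB3 (1.83) rose, all called by edgeR. The 5 lymphoid markers summed to 1.86 to 2.80 TPM in SCR, 3.91 to 4.51 TPM in the DHX34 knockdown and 1.72 to 2.03 TPM in the UPF1 knockdown. The part of these shifts in the iron gene values was not tested.

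The members spanned a wide range of abundance in SCR cells. FTL, the ferritin light chain, averaged 5041 ± 153 TPM (SD, n = 3) and was the gene of rank 20 among 26482 genes with a value above 0. FTH1, the ferritin heavy chain with the ferroxidase activity, averaged 4312 ± 197 TPM at rank 29. TFRC, the transferrin receptor, followed at 182 ± 5.50 TPM and NCOA4, the receptor that delivers ferritin to autophagy, at 88.7 ± 1.21 TPM. The ferritin chains thus stood far above the genes that import, release or sense iron.

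The lower end of the range held the transporters and the sensors. SLC40A1 (ferroportin, the iron exporter) was at 36.9 ± 1.85 TPM and IREB2 (IRP2) at 28.4 ± 1.92 TPM. STEAP3, the endosomal ferrireductase, was at 19.1 ± 0.855 TPM and SLC11A2 (DMT1, the divalent metal transporter) at 16.3 ± 0.345 TPM. ACO1, the cytosolic aconitase that becomes IRP1 when it loses its iron-sulphur cluster, was at 14.5 ± 0.177 TPM. HMOX1 was close to 0. This order was the same in all 3 groups, and the 3 libraries of each gene were separate from those of its neighbour except for STEAP3 and SLC11A2 in the UPF1 knockdown.

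**Figure D1:**
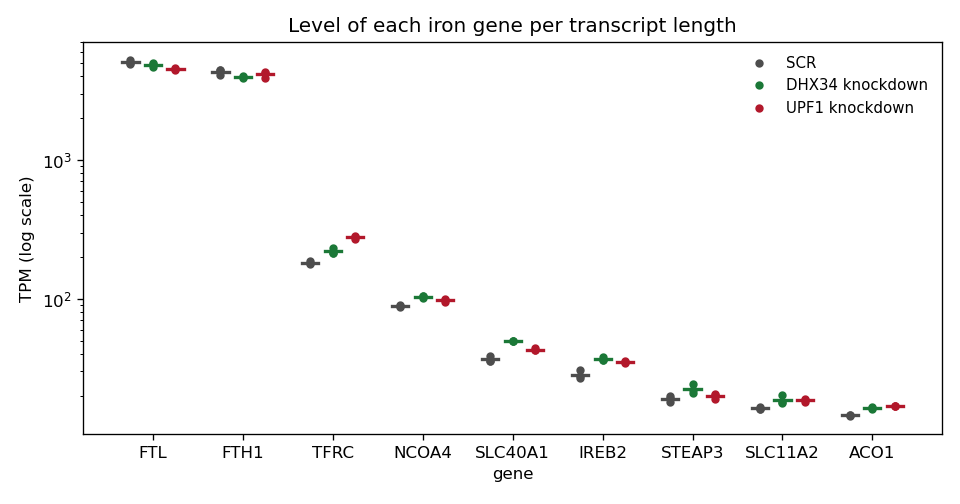
Level of 9 iron genes in TPM on a log axis, with 1 point per library, a short line at the mean of 3 libraries and colours for the SCR, DHX34 knockdown and UPF1 knockdown groups. HMOX1 is left out because most libraries were at 0. The lowest ferritin value is 3881 TPM (FTH1), and the highest value of another gene is 284 TPM (TFRC).

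Depletion of UPF1 was compared with SCR to ask which of these mRNAs depend on the core NMD factor. TFRC rose, while FTL, FTH1 and SLC11A2 fell. In all, 1 of the 9 tested members was called higher and 3 lower at an adjusted p of at most 0.005 in edgeR's quasi-likelihood test, against 25.3% of all 17184 genes tested (12.4% higher and 12.9% lower). The p-values measure the spread between these libraries. The libraries of 7 members did not overlap between the groups in CPM, as was the case for 50.6% of all genes. The median log2 fold change of the 9 members was -0.08, beside 0.02 over all genes.

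TFRC held 785, 811 and 817 CPM in the SCR libraries and 1021, 1092 and 1076 CPM in the UPF1 knockdown. Every UPF1 knockdown library was above every SCR library. The log2 fold change was 0.40 ± 0.03 (SE) with an edgeR adjusted p of 1.16e-06, or 1.32-fold. It was called without any 1 library (0.37 to 0.43), but its size depended on the scale, with 0.60 on log2 TPM (0.40 relative to the median of all genes) and 0.22 with the trend of fold change with gene length removed. In the fit without the length trend the median of all genes was -0.09. On log2 TPM the median of all genes was taken over the 12538 genes that averaged at least 1 TPM, or 12500 in the DHX34 comparison.

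FTL held 3445, 3130 and 3354 CPM in SCR and 2597, 2559 and 2514 CPM in the UPF1 knockdown, a log2 fold change of -0.38 ± 0.03 (adjusted p = 2.67e-06, edgeR). FTH1 held 1914, 1991 and 2039 CPM in SCR and 1698, 1753 and 1584 CPM in the UPF1 knockdown, a log2 fold change of -0.24 ± 0.04 (adjusted p = 0.000157, edgeR). For both ferritin chains the groups were apart in all libraries. On the TPM scale the median of all genes itself lay 0.21 (log2) above SCR in this comparison, so that FTL, at -0.16, differed from it by -0.36 and FTH1 by -0.26. By limma on that scale FTH1 was not called, with a log2 TPM difference of -0.06 (adjusted p = 0.340, limma).

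SLC11A2 held 46.2, 44.3 and 46.4 CPM in SCR and 38.3, 40.01 and 40.6 CPM in the UPF1 knockdown. Its log2 fold change on counts was -0.21 ± 0.04 (adjusted p = 0.00112, edgeR), but the direction turned on the TPM scale, with 16.1 to 16.7 TPM in SCR and 18.1 to 19.0 TPM after UPF1 depletion. Relative to the median of all genes, the log2 TPM difference was -0.021, so the turn did not outlast the median shift. With counts scaled by transcript length the difference was -0.03 (adjusted p = 0.706, edgeR). The call was lost without UPF1 knockdown replicate 1 (adjusted p = 0.00857) or without replicate 2 (adjusted p = 0.00622). The shift of this gene between long and short transcripts is described with the isoforms.

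The remaining members were not called on counts. STEAP3 differed by -0.15 ± 0.04 on the log2 scale (adjusted p = 0.0102, edgeR) and NCOA4 by -0.08 ± 0.03 (adjusted p = 0.0440), and both turned positive on the TPM scale before the median shift was taken off. ACO1 differed by 0.07 ± 0.03 (adjusted p = 0.150), IREB2 by -0.01 ± 0.04 (adjusted p = 0.897) and SLC40A1 by -0.04 ± 0.04 (adjusted p = 0.566), all by edgeR. On log2 TPM, limma called IREB2 (0.30, adjusted p = 0.00283), ACO1 (0.22, adjusted p = 0.00369) and SLC40A1 (0.22, adjusted p = 0.00446) higher, which relative to the median of all genes were differences of 0.098, 0.013 and 0.019. With the trend of fold change with gene length removed, STEAP3 (-0.30), NCOA4 (-0.23) and IREB2 (-0.20) were called lower as well, and the count of members called rose from 4 to 7. Over all 17184 genes the count called rose from 4345 to 5244. The median of all genes in that fit was -0.09, so part of these values is a shift shared by all genes.

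**Figure D2:**
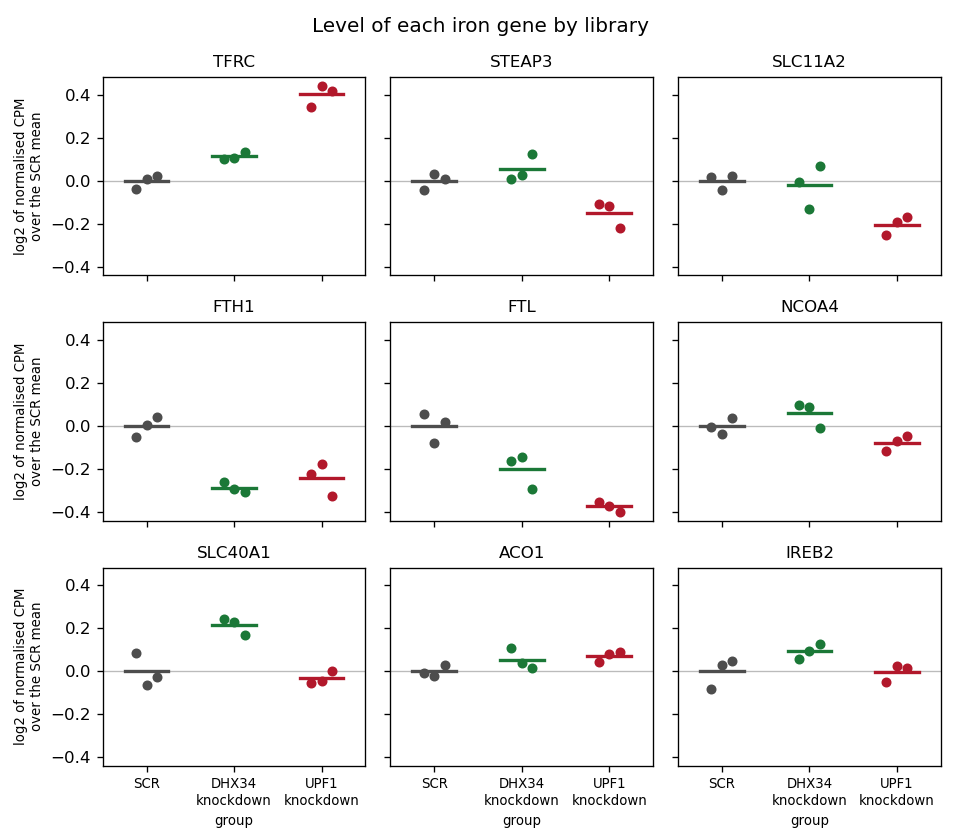
Normalised CPM of 9 iron genes by library, as log2 of the ratio to the mean of the SCR libraries, with 1 point per library and a line at the group mean. In TFRC the UPF1 knockdown libraries lie above all others, in FTL they lie below all others, and in FTH1 both knockdowns lie below SCR.

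Depletion of DHX34 was compared with SCR to ask whether the same mRNAs respond to this helicase. FTH1 fell. By edgeR 0 members were called higher (3 at an unadjusted p under 0.05, 1 with DESeq2) and 1 of 9 was called lower, against 10.4% of all 17004 genes tested (5.54% higher and 4.86% lower). In CPM, 5 members did not overlap between the groups, 3 of them higher and 2 lower, as was the case for 41.4% of all genes. The median log2 fold change of the 9 members was 0.06, beside 0.02 over all genes. This comparison and the previous one share the SCR libraries.

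FTH1 held 1655, 1620 and 1601 CPM in the DHX34 knockdown libraries, all below the 3 SCR libraries given above. The log2 fold change was -0.28 ± 0.04 with an edgeR adjusted p of 0.000554. It stayed below 0.005 when any 1 library was left out. The call was lost on the TPM scale, where FTH1 differed by -0.12 (adjusted p = 0.0343, limma) and by -0.28 relative to the median of all genes, which lay 0.16 above SCR. It was also lost when the trend with gene length was removed (-0.21, adjusted p = 0.00588, edgeR), a fit in which the median of all genes was -0.07.

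FTL held 2960, 3000 and 2704 CPM in the DHX34 knockdown, below all SCR libraries, but its log2 fold change of -0.19 ± 0.05 was not called (adjusted p = 0.0218, edgeR). SLC40A1 held 63.1, 57.0 and 58.4 CPM in SCR and 70.4, 69.8 and 67.0 CPM in the DHX34 knockdown. These groups did not overlap, and the log2 fold change of 0.22 ± 0.05 narrowly missed the threshold (adjusted p = 0.00728, edgeR). With DESeq2 both genes were called, at adjusted p-values of 0.000323 for FTL and 0.000835 for SLC40A1.

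TFRC held 863, 867 and 883 CPM in the DHX34 knockdown, between the SCR and the UPF1 knockdown libraries. Its log2 fold change of 0.12 ± 0.04 against SCR was not called (adjusted p = 0.0322, edgeR) and turned to -0.07 when the trend with gene length was removed. The median of all genes in that fit was itself -0.07. On log2 TPM it was called higher, at 0.27 (adjusted p = 0.00418, limma) and 0.11 relative to the median of all genes. Across all genes the fold change correlated with gene length in this comparison, with a Spearman rho of 0.238 over 17004 genes, beside 0.155 in the UPF1 comparison, values that describe genes and not replicates. TFRC mRNA is a long one, and the part of the length trend in its value was not tested. STEAP3, NCOA4, ACO1, IREB2 and SLC11A2 differed by -0.02 to 0.10 (adjusted p from 0.110 to 0.844, edgeR), and all but SLC11A2 turned negative when the length trend was removed. On log2 TPM, limma called NCOA4 (0.22, adjusted p = 0.00275), IREB2 (0.37, adjusted p = 0.00411) and SLC40A1 (0.43, adjusted p = 0.00135) higher as well, which relative to the median of all genes were differences of 0.059, 0.21 and 0.27.

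The knockdowns were then compared with each other, which tests whether the response of a gene differs between them. TFRC was higher after UPF1 depletion than after DHX34 depletion, and SLC40A1 was lower. These were the only members called, 1 in each direction of 9, against 17.4% of all 17435 genes tested (9.89% higher and 7.47% lower). In CPM, 7 members did not overlap, 1 of them higher and 6 lower, as was the case for 45.9% of all genes. The median of the 9 members was -0.13, beside 0.01 over all genes.

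The log2 fold change of TFRC between the knockdowns was 0.30 ± 0.03 (adjusted p = 7.22e-05, edgeR), or 1.23-fold, and it was called without any 1 library. SLC40A1 held 57.4, 57.8 and 59.7 CPM after UPF1 depletion, all below the DHX34 knockdown libraries, with a log2 fold change of -0.23 ± 0.04 (adjusted p = 0.000561, edgeR). Without UPF1 knockdown replicate 1 or replicate 2 the adjusted p of SLC40A1 was 0.00525 and 0.00543. FTH1 differed by only 0.06 ± 0.04 (adjusted p = 0.322, edgeR), so no difference in its response to the knockdowns was detected. FTL differed by -0.17 ± 0.04 (adjusted p = 0.0117) and STEAP3 by -0.19 ± 0.04 (adjusted p = 0.00752), neither of them called by edgeR. Without DHX34 knockdown replicate 3, FTL was called at -0.22 (adjusted p = 8.32e-06) and NCOA4 at -0.17 (adjusted p = 0.000340), and the count of members called rose from 2 to 4. Over all genes the count called rose as well, from 3026 of 17435 to 3865 of 18185.

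**Figure D3:**
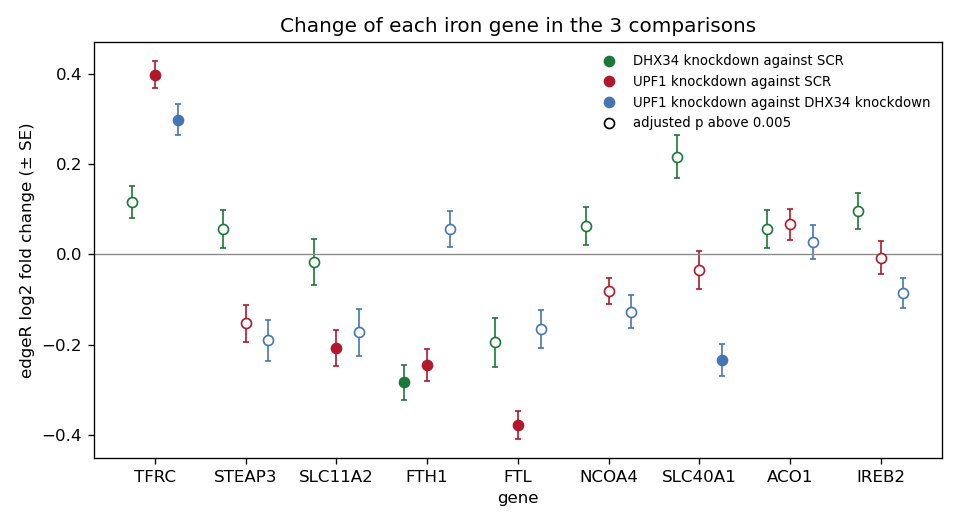
edgeR log2 fold change with its standard error for 9 iron genes in the 3 comparisons, with filled points at an adjusted p of at most 0.005 and open points above it. TFRC has the highest values in both UPF1 comparisons (0.40 and 0.30), FTL the lowest against SCR (-0.38), and FTH1 is filled against SCR in both knockdowns.

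The balance of the ferritin chains was read as the ratio of FTH1 to FTL TPM, a quantity added after the levels had been seen. It was 0.783, 0.900 and 0.888 in SCR, 0.813, 0.785 and 0.853 in the DHX34 knockdown, and 0.922, 0.959 and 0.874 in the UPF1 knockdown. The SCR libraries overlapped both knockdowns, with exact permutation p-values (two-sided, n = 3 against 3) of 0.4 for DHX34 and 0.3 for UPF1. The knockdowns did not overlap, with an exact p of 0.1, the smallest that 3 libraries against 3 can give. The 25 annotated FTH1 pseudogenes summed to at most 35.0 counts in a library and the 16 of FTL to at most 37 counts, where the parent genes had at least 119050 and 197525.

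HMOX1, the inducible oxygenase that opens the haem ring and frees its iron, was all but absent. It had 1, 2 and 0 expected counts in the SCR libraries, 0, 0 and 4 in the DHX34 knockdown and 0, 0 and 2 in the UPF1 knockdown. It passed no filter and was not tested. A floor of 3 counts corresponds to 0.0295 to 0.0416 CPM in these libraries, and intervals of this kind cover counting error only.

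The members differed in how many isoforms carried their level. Of the 95 transcripts, 37 averaged at least 1 TPM. FTL had 1 transcript in the tables, and in TFRC the full-length TFRC-201 made up 85.6% ± 0.530 of the gene's TPM in SCR, 85.4% ± 0.840 after DHX34 depletion and 85.3% ± 0.552 after UPF1 depletion. FTH1 was carried by FTH1-206 (60.2% ± 0.648 in SCR) and FTH1-212 (30.5% ± 0.119), and NCOA4 by NCOA4-204 (75.0% ± 0.314) and NCOA4-207 (23.4% ± 0.282). SLC11A2 was the most divided, with 32 transcripts, of which 3 averaged at least 1 TPM. Such estimates divide shared reads between overlapping isoforms, and the short SLC40A1-204 and SLC40A1-206 (299 and 592 bases) rest on few bases of their own.

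At the level of single transcripts, edgeR called TFRC-201 higher (0.35 ± 0.03, adjusted p = 0.00160) after UPF1 depletion. It called FTL-201 (-0.42 ± 0.04, adjusted p = 0.00183), SLC11A2-201 (-0.64 ± 0.07, adjusted p = 0.00344) and NCOA4-207 (-0.29 ± 0.03, adjusted p = 0.00474) lower. These were 4 of the 58 tested transcripts of the members, against 2.59% of 62497 transcripts. With the replicate number as a block, which treats same-numbered libraries as pairs, none of the 4 kept its call, with adjusted p-values of 0.0195 for TFRC-201 and FTL-201, 0.0197 for SLC11A2-201 and 0.0402 for NCOA4-207. Against SCR, DHX34 depletion gave 0 called transcripts among 57 tested in edgeR, against 0.0463% of 60416 transcripts in the same fit. Of the 57, 15 were at an unadjusted p under 0.05 and 5 were called with DESeq2. No share over all transcripts is given for those 2 counts, and the edgeR share is no measure for them.

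SLC11A2-201 is the long form that carries the IRE just after its stop codon. It was at 6.51, 7.12 and 7.37 TPM in SCR, 6.63, 5.64 and 7.17 TPM after DHX34 depletion and 5.13, 5.40 and 5.58 TPM after UPF1 depletion. The UPF1 knockdown libraries were below all others. The coding form without the element, SLC11A2-229, was at 2.58 ± 0.498, 3.38 ± 0.509 and 3.39 ± 0.274 TPM in the same order of groups and was not called (adjusted p from 0.667 to 0.897, edgeR).

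The IRE-holding transcripts of SLC11A2, 8 of 32, made up 49.9%, 51.5% and 49.0% of the gene's TPM in SCR. They made up 44.2%, 38.1% and 44.9% in the DHX34 knockdown and 33.8%, 34.2% and 33.1% in the UPF1 knockdown. The 3 groups were apart in every library. The mean difference from SCR was -7.78 percentage points for DHX34 and -16.5 points for UPF1. The exact permutation p was 0.1 in each pair, the smallest possible. The summed level of these transcripts was 8.19 ± 0.127 TPM in SCR and 6.28 ± 0.0622 TPM after UPF1 depletion. After DHX34 depletion it was 7.999 ± 1.17 TPM, so no fall beyond the spread was seen there in plain TPM. The gene's NMD-biotype transcripts averaged 2.42 TPM in SCR and 4.45 TPM after DHX34 depletion. On this scale the median of all genes lay 0.16 (log2) above SCR for DHX34 and 0.21 for UPF1, a shift not taken off these sums. Both shares divide the same gene total, so they are not independent results. Shares of single transcripts failed to overlap in 21.5% (DHX34), 28.2% (UPF1) and 22.6% (between the knockdowns) of the 22261 transcripts compared. For SLC40A1, 3 of whose 7 transcripts hold the element, the share was 51.7% ± 1.89, 49.5% ± 0.503 and 50.3% ± 2.11 and the exact p lay between 0.2 and 0.6.

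NMD-biotype transcripts, those annotated as substrates of the pathway, were measured for TFRC, SLC11A2, FTH1 and IREB2. For SLC11A2 they held 18.4%, 12.5% and 13.6% of the gene's TPM in SCR, 23.6%, 24.4% and 23.1% after DHX34 depletion, and 22.7%, 25.4% and 26.9% after UPF1 depletion. For IREB2 they held 5.93%, 4.92% and 3.57% in SCR, 9.79%, 9.48% and 8.21% after DHX34 depletion, and 9.85%, 9.82% and 8.11% after UPF1 depletion. Both knockdowns were above SCR in every library of both genes, with an exact permutation p of 0.1. For IREB2 the mean difference from SCR was 4.35 points for DHX34 and 4.45 points for UPF1, but 1.46 and 1.73 points when shares were taken over expected counts, and 2.94 and 2.87 points over transcripts of at least 1 TPM. For SLC11A2 the DHX34 difference of 8.84 points was 5.83 points over expected counts. Most of the SLC11A2 share lay in SLC11A2-206. It held 12.1% ± 4.34 of the gene's TPM in SCR, 17.1% ± 2.89 after DHX34 depletion and 18.6% ± 1.72 after UPF1 depletion. Between the knockdowns the libraries overlapped, with exact p-values of 0.4 for SLC11A2 and 0.8 for IREB2.

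FTH1 differed from this pattern. Its NMD-biotype share was 0.616%, 0.417% and 0.393% in SCR, 0.342%, 0.400% and 0.357% after DHX34 depletion and 0.945%, 0.877% and 0.914% after UPF1 depletion. The UPF1 knockdown was above both other groups in every library, while the DHX34 knockdown overlapped SCR (exact permutation p = 0.2). An NMD-biotype share higher in all 3 libraries was seen in 2 of these 4 genes for DHX34, beside 7.31% of 4599 genes, and in 3 of 4 for UPF1, beside 30.1%. Between the knockdowns only FTH1 of the 4 was higher after UPF1 depletion in every library, beside 28.2% of genes. TFRC had at most 0.451% of its TPM in such transcripts in any library. Retained-intron transcripts held 3.90% ± 0.627 of the TFRC TPM in SCR, 4.32% ± 0.185 after DHX34 depletion and 3.46% ± 0.226 after UPF1 depletion, apart only between the knockdowns (exact permutation p = 0.1), where 6.73% of 6316 genes had a lower such share after UPF1 depletion in every library. Over expected counts that difference shrank from -0.861 to -0.0625 points (exact permutation p = 0.2).

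FTH1-210, the main NMD-biotype form of the ferritin heavy chain, carried the difference. It was at 16.8, 12.8 and 11.7 TPM in SCR, 10.8, 11.2 and 11.5 TPM after DHX34 depletion, and 35.4, 30.2 and 30.8 TPM after UPF1 depletion. Between the knockdowns its log2 fold change was 1.46 ± 0.08 (adjusted p = 0.000587, edgeR), 1 called transcript of 64 tested against 1.05% of 64325. Against SCR it was 0.98 ± 0.15 for UPF1 (adjusted p = 0.0115) and -0.46 ± 0.15 for DHX34 (adjusted p = 0.211), neither called. Leaving out any 1 library kept the value between 1.39 and 1.505, with the adjusted p between 0.00432 and 0.00723 and a call in 1 of 6 such fits. FTH1-210 remained below 1% of the FTH1 TPM, and it is 1 of the 10 among 12 FTH1 transcripts that hold the IRE.

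IREB2 carried its NMD-biotype share on transcripts chosen for naming after their values were seen. IREB2-203 averaged 0.365 TPM in SCR, 1.17 TPM after DHX34 depletion and 1.33 TPM after UPF1 depletion, with log2 fold changes of 1.53 ± 0.25 (adjusted p = 0.0349, edgeR) and 1.63 ± 0.25 (adjusted p = 0.0115). IREB2-202 averaged 0.892, 2.03 and 1.92 TPM. The full-length coding form IREB2-201 made up 89.7% ± 2.46 of the gene in SCR, 81.8% ± 2.14 after DHX34 depletion and 81.9% ± 1.11 after UPF1 depletion, without overlap between SCR and either knockdown.

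**Figure D4:**
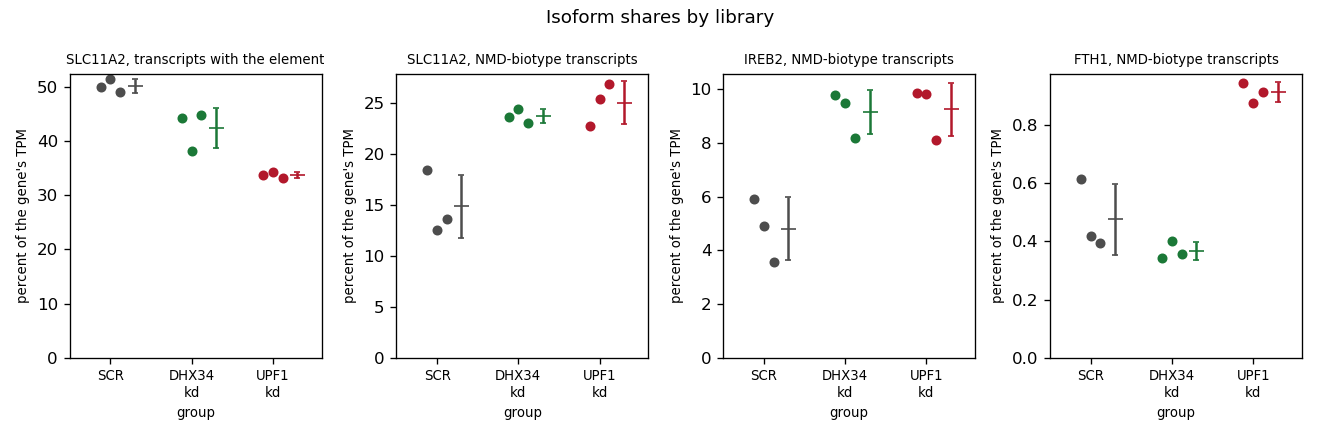
Share of a gene's TPM, in percent on axes from 0, held by SLC11A2 transcripts with the IRE and by NMD-biotype transcripts of SLC11A2, IREB2 and FTH1, with 1 point per library and the mean ± SD of 3 libraries beside them. The SLC11A2 share with the IRE steps from about 50.2% to 42.4% and 33.7%, the NMD-biotype shares of SLC11A2 and IREB2 are higher in both knockdowns, and that of FTH1 is higher after UPF1 depletion only.

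Other iron handling genes gave a wider view. Of 26 listed, 23 were tested. After DHX34 depletion, SLC48A1 (a haem transporter, 0.36) and TFR2 (the second transferrin receptor, 0.30) rose, while SLC25A37 (mitoferrin 1, -0.34) and ISCU (the iron-sulphur scaffold, -0.23) were among those that fell, all as log2 fold changes called by edgeR. Over all genes 5.54% were called higher and 4.86% lower there. After UPF1 depletion 2 rose and 8 fell, beside 12.4% higher and 12.9% lower over all genes. SLC39A14 (a zinc and iron importer, 0.30) and FLVCR1 (a haem exporter, 0.25) were higher. SLC25A37 (-0.41), HMOX2 (the constitutive haem oxygenase, -0.33), PCBP1 (an iron chaperone, -0.31), FBXL5 (the ubiquitin ligase subunit that removes IRP2, -0.26), PCBP2 (-0.25), GLRX5 (-0.22) and ISCU (-0.19) were among those lower. The median of the 23 genes was -0.01 for DHX34 and -0.07 for UPF1. Between the knockdowns, where 9.89% of all genes were called higher and 7.47% lower, SLC39A14 (0.32) was higher after UPF1 depletion and SLC48A1 (-0.41), FBXL5 (-0.27), PCBP1 (-0.21) and TFR2 (-0.19) were lower.

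Other mRNAs known to carry an IRE moved in both directions. ALAS2, the erythroid enzyme that starts haem synthesis and itself an erythroid marker, held 28.9 ± 1.64 CPM in SCR and 18.0 ± 2.69 CPM after UPF1 depletion (-0.68 ± 0.09, adjusted p = 7.09e-05, edgeR). EPAS1 (HIF-2α) rose by 0.59 on the log2 scale (adjusted p = 8.89e-05, edgeR) in the same comparison. CDC42BPA rose after DHX34 depletion (0.27 ± 0.04, adjusted p = 0.00158, edgeR), and CDC14A was not called in any comparison. Of the 11 erythroid markers, 8 fell after UPF1 depletion and 3 after DHX34 depletion, beside 12.9% and 4.86% of all genes. By edgeR 0 of them were called higher in either, beside 12.4% and 5.54% of all genes (0 and 1 at an unadjusted p under 0.05 and with DESeq2). Their part in the iron gene values was not tested.

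HMOX1 and the ferritin chains are also targets of the NRF2 and BACH1 transcription factors, so 12 other genes of that response were read. After DHX34 depletion edgeR called 0 of these 12, beside 10.4% of all 17004 genes, so few calls would be looked for among 12 genes. Of the 12, 6 were at an unadjusted p under 0.05 and 1 was called with DESeq2. After UPF1 depletion, where 12.4% of all genes were called higher and 12.9% lower, SLC7A11 (the cystine importer, 0.57), SQSTM1 (p62, 0.33) and SRXN1 (sulphiredoxin, 0.15) rose and KEAP1 (the NRF2 inhibitor, -0.16) fell on the log2 scale. The median of the 12 was 0.04 for DHX34 and -0.03 for UPF1.

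The genes with the pattern most like that of TFRC over the 9 libraries were TMEM109, TMEM97 and TUBGCP4. Their root mean square distance from TFRC, in log2 CPM centred on each gene's mean, was 0.0321, 0.0338 and 0.0338, where the values of TFRC itself varied by 0.172. Those most like FTH1 were RPL23AP42, MARCKSL1 and ATP6V0C at 0.0300, 0.0323 and 0.0329, where FTH1 varied by 0.132. RPL23AP42 is a ribosomal protein pseudogene whose reads may be shared with its parent gene. The 10064 genes searched averaged at least 5 CPM, which left out HMOX1, which is below that level.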

How the data were processed

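Poly(A) RNA of 9 K562 libraries was sequenced, with groups taken from the labels. The authors quantified reads with salmon 1.5.2 (GC bias correction) against Ensembl release 93 cDNAs of GRCh38, and the deposited tables give expected counts and TPM per transcript. The authors' sleuth tables (p-value, q-value and effect) and SUPPA2 tables (splicing differences and p-values) hold their own comparisons and were not used.

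Transcripts were joined by identifier to GENCODE 44, which supplied symbols, biotypes and coordinates. The join matched 97.9% of transcripts and 98.1% of counts, 77 of the members' 95 transcripts had the same length in both, and unmatched transcripts were dropped. Expected counts were summed per gene, rounded, and fitted with edgeR 4.0.16 in R 4.3.3 (quasi-likelihood, TMM, genes filtered by filterByExpr at 10 counts), each comparison on its own 6 libraries. Benjamini-Hochberg adjustment ran over all genes or transcripts, and a call needs an adjusted p of at most 0.005. DESeq2 1.42.0 and limma 3.58.1 on log2(TPM + 0.5) were alternatives, with limma run on those averaging at least 1 TPM. For shares and ratios the test was an exact permutation over libraries, two-sided, and fits were tested on simulated data.

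The members and lists were chosen with earlier results of these data known. All 10 genes are named. Isoforms are named from 1 TPM upward when they reach 10% of their gene or are called. Of the listed genes, those called are named, except some that are not reported here. In UPF1 against SCR, deviations of same-numbered libraries correlated at 0.466, 0.114 and 0.297 over 10064 genes, and those of unlike-numbered libraries at -0.364 to 0.203. Treating same-numbered libraries as pairs there thus rests on a weak sign from the data and not on the labels. The main fits used no block. No label states whether libraries came from separate cultures, but the authors describe them as biological replicates.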

Additional observations from a re-analysis of the deposited data

Results flagged for a closer look

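The knockdowns differed from each other by direct test in 2 genes and 1 transcript among the members. TFRC was higher after UPF1 depletion than after DHX34 depletion, with a log2 fold change of 0.30 between them, and SLC40A1 was lower, with -0.23. The NMD-biotype transcript FTH1-210 was higher after UPF1 depletion, with 1.46. Erythroid markers summed to a lower TPM in the UPF1 knockdown libraries and monocytic markers to a higher TPM in the DHX34 knockdown libraries, and the part of these in the differences was not tested.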

How the results depend on the processing

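In UPF1 against SCR the count of members called was 4 and kept within 1.5 times of it in every alternative but the removal of the length trend (7), with 3 to 4 when 1 library was left out and 4 with the replicate block. With limma on log2 TPM it was 5, of which 4 were higher (TFRC, SLC40A1, ACO1 and IREB2). Over all genes the count called was 4345 of 17184, and it was 5244 of 17184 without the length trend and 3726 of 12538 with limma. The block changed no call of a member gene in UPF1 against SCR. In DHX34 against SCR the count was 1. It was 3 with DESeq2, without a filter and with all 9 libraries in the fit, 4 at an adjusted p of at most 0.05, 4 with limma on log2 TPM (TFRC, NCOA4, SLC40A1 and IREB2, all higher, and not FTH1), 0 with the replicate block and with the length trend removed, and 1 to 2 with 1 library left out. Over all genes 1768 of 17004 were called. With DESeq2 it was 2961 of 17004, without a filter 3396 of 29003 and with all 9 libraries 2549 of 17696. With limma it was 1036 of 12500, with the block 1007 of 17004 and without the length trend 1910 of 17004. In that comparison same-numbered libraries correlated at -0.07, -0.18 and -0.40 and unlike-numbered ones at up to 0.338. With the block the adjusted p of FTH1 there was 0.00737. Between the knockdowns the count was 2. It was 5 with DESeq2 and without a filter, 6 at the looser threshold, and 1 to 4 with 1 library left out. Over all genes it was 3026 of 17435, and 3979 of 17435 with DESeq2 and 4358 of 29174 without a filter. For the looser threshold no share over all genes is given in any comparison.

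Called transcripts of the members depended more on the setting, and shares over all transcripts are not given for the alternatives. For UPF1 there were 4, but 12 with DESeq2, 10 at the looser threshold, 2 with limma, 0 with the block and 0 to 1 with 1 library left out. For DHX34 there were 0, but 5 with DESeq2 and 3 at the looser threshold. Between the knockdowns there was 1, but 5 with DESeq2, 3 at the looser threshold, 2 with all 9 libraries and with limma, 0 with the block and 0 to 2 with 1 library left out.

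Directions turned in several members, among them SLC11A2, which was called lower on counts for UPF1. With the length trend removed, DHX34 against SCR gave -0.066 for TFRC, -0.082 for STEAP3, -0.076 for NCOA4, -0.11 for ACO1 and -0.10 for IREB2, and UPF1 against SCR gave -0.10 for ACO1. The median of all genes in these fits was -0.070 for DHX34 and -0.086 for UPF1, so these values lay near a shift shared by all genes. On log2 TPM the UPF1 comparison gave 0.062 for STEAP3, 0.18 for SLC11A2, 0.13 for NCOA4, 0.22 for SLC40A1 and 0.30 for IREB2, and the DHX34 comparison 0.20 for SLC11A2. Relative to the median of all genes, STEAP3 (-0.14), SLC11A2 (-0.021) and NCOA4 (-0.071) were negative for UPF1. SLC40A1 (0.019) and IREB2 (0.098) stayed positive for UPF1, as did SLC11A2 (0.035) for DHX34. Length-scaled counts gave 0.035 for SLC11A2 (DHX34), and 0.0079 for SLC40A1 and 0.089 for IREB2 (UPF1). With 1 library left out, SLC11A2 ran from -0.056 to 0.030 (DHX34), SLC40A1 from -0.070 to 0.0030 and IREB2 from -0.052 to 0.014 (UPF1), and ACO1 from -0.0053 to 0.055 (between knockdowns). The IREB2 NMD-biotype share between knockdowns ran from -0.370 to 0.679 points, and was -0.0723 over transcripts at 1 TPM. The TFRC retained-intron share for DHX34 was -0.00414 points on counts, and that of FTH1 between knockdowns ran from -0.0406 to 0.00599. The cause of these changes was not tested. The planned IRE search with all 5 pairs gave no SLC11A2 transcript, so the share rests on the search added after seeing the data. With 3 libraries a group, exact tests could not go below 0.1, and isoforms near 1 TPM rest on few reads of their own.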
